A study of Mus musculus with 9 samples.

Results

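In MYCN-driven T cell lymphoma cells from mouse thymus, 1922 of 18730 EZH2 peaks lay on a p300 peak with no N-MYC peak and no Polycomb feature called at the same place. These peaks were selected on the deposited lists: an EZH2 peak on chromosomes 1 to 19, X or Y was taken when it shared at least 1 bp with a p300 peak and none with an N-MYC, SUZ12 or H3K27me3 peak. They made up 26.2% (95% Wilson interval 25.2 to 27.2%) of the 7344 EZH2 peaks that had p300 and neither Polycomb feature. The other 5422 also had N-MYC and are used below as the nearest comparison. The absence of N-MYC, SUZ12 and H3K27me3 calls and the presence of p300 are therefore the choice itself and not results.

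The cells came from C57BL/6J mice and were profiled by ChIPmentation, a chromatin immunoprecipitation in which a transposase adds the sequencing adapters. The 9 samples were 7 immunoprecipitations (EZH2, SUZ12, H3K27me3, N-MYC, p300, H3K4me3 and H3K27ac) and 2 input libraries, which are not used here. All were labelled alike for strain, thymus and lymphoma cells, so there is no normal thymocyte or N-MYC-negative group to compare with, and the labels give neither the promoter or Cre that drives MYCN nor the animal behind each library. Each antibody had 1 library: no difference below has a replicate check, no p-value is given, and intervals cover counting error over peaks or genes, which are not independent replicates. The 7 lists held 282301 peaks in all. As a check of the labelled cell type, 12 of 12 T-cell marker genes had an H3K4me3 peak within 1 kb of the start, against 0 of 5 fibroblast, 0 of 4 endothelial and 1 of 6 thymic epithelial markers. Among markers of other blood cells, 2 of 7 for B cells (Cd79a and Cd79b), 3 of 8 for myeloid cells (Cd14, Cebpa and Cebpb) and 4 of 4 for erythroid cells (Alas2, Gata1, Hbb-bt and Klf1) had one, and their part in the results was not tested.

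EZH2 is the methyltransferase of Polycomb repressive complex 2 and is best known for placing H3K27me3 on silent genes together with SUZ12. p300 is an acetyltransferase that acetylates H3K27 and other histone residues at active promoters and enhancers. N-MYC binds DNA as a dimer with MAX, preferring the E-box CACGTG, and is known for driving ribosome production and growth. H3K4me3 marks the starts of active genes.

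Promoters of cell-cycle and proteasome genes carried some of these EZH2 peaks, and 7 are shown because their letters illustrate the motif shares given below. The windows run from 250 bases before to 50 bases after the gene start, come from RefSeq (GRCm38.p6), and were chosen after their values were seen. In the 4 cell-cycle promoters, capitals mark the CCAAT box, the letters known to bind NF-Y, and the cell-cycle homology region TTTGAA, known from genes of mitosis, on either strand (ATTGG and TTCAAA are their reverse complements). Mki67, the gene of the proliferation marker Ki-67, is at chr7:135716330-135716629 on the minus strand, Plk1, a mitotic kinase, at chr7:122159185-122159484 on the plus strand, Top2a, the DNA topoisomerase that untangles sister chromosomes, at chr11:99024140-99024439 on the minus strand, and Ccnb2, a mitotic cyclin, at chr9:70421505-70421804 on the minus strand.
Mki67: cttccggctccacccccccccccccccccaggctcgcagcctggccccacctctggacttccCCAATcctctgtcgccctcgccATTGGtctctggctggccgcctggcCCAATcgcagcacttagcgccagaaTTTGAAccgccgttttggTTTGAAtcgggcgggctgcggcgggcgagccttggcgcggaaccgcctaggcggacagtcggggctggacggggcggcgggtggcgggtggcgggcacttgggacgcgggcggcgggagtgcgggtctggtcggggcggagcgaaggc
Plk1: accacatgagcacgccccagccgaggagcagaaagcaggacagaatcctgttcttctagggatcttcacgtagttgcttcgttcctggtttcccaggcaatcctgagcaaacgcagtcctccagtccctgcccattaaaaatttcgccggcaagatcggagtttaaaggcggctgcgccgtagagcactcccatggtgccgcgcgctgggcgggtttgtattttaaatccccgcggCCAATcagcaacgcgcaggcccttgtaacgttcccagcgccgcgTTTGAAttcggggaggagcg
Top2a: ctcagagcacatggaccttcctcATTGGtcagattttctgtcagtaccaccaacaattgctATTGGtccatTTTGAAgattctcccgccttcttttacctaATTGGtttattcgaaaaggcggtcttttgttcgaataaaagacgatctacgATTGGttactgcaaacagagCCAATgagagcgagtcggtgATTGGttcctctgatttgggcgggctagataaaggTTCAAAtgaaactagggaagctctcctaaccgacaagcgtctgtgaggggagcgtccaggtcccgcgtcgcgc
Ccnb2: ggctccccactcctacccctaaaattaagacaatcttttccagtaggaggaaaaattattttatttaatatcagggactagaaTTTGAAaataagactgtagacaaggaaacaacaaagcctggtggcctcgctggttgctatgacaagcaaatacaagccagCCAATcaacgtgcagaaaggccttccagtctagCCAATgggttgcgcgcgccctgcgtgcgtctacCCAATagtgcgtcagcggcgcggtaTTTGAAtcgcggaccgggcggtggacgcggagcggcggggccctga
The CCAAT letters occurred 3 times in the Mki67 window, 1 time in Plk1, 6 times in Top2a and 3 times in Ccnb2. TTTGAA occurred 2 times in Mki67, Top2a and Ccnb2 and 1 time in Plk1.

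In the 3 proteasome promoters, capitals mark CCGGAAG or its reverse complement CTTCCGG, the core letters of the site that ETS factors bind. Psmd4, a ubiquitin receptor of the regulatory particle, is at chr3:95042565-95042864 on the minus strand, Psmc1, an ATPase of that particle, at chr12:100109952-100110251 on the plus strand, and Psme4, a proteasome activator, at chr11:30771525-30771824 on the plus strand.
Psmd4: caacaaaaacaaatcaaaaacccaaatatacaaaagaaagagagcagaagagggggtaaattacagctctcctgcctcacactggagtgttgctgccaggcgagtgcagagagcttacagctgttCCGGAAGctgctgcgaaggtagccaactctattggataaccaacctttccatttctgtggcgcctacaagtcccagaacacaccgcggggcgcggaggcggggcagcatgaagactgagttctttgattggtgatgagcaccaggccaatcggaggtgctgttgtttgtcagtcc
Psmc1: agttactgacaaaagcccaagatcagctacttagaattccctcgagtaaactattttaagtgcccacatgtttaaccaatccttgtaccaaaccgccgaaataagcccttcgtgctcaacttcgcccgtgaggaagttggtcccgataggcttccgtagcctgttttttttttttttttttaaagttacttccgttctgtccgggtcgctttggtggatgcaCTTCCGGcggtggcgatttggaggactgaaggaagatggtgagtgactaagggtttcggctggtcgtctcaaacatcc
Psme4: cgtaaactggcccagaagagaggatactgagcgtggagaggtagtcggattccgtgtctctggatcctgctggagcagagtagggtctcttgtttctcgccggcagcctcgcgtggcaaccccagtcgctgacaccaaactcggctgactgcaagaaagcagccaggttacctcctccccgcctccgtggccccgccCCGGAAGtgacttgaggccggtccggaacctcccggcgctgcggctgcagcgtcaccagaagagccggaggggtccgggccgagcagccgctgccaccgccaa
None of the 7 windows held CACGTG, and each of the 7 overlapped an EZH2 peak with p300 and without N-MYC. CACGTG was in 7.11% of all windows overlapped by such a peak alone and in 12.2% of those overlapped by one with N-MYC alone. Its absence from 7 chosen windows therefore does not set them apart. Among the other cell-cycle windows, those of Cdkn2c and Ttk held it.

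The EZH2 peaks with p300 and no N-MYC lay almost entirely in active promoter chromatin, judged by marks whose lists the choice did not use. The choice did require p300, which acetylates H3K27, and excluded H3K27me3 and SUZ12, so these shares are not independent of it. H3K4me3 overlapped 1914 of 1922 (99.6%, 99.2 to 99.8%) and H3K27ac 1909 (99.3%, 98.9 to 99.6%). At EZH2 peaks with N-MYC and p300 the shares were 99.7 and 99.8%. At the 1005 EZH2 peaks with neither factor and no Polycomb feature they were 68.1% (65.1 to 70.9%) and 68.3% (65.3 to 71.1%), and at the 8374 with SUZ12 and H3K27me3 they were 16.1 and 8.03%. Neither mark was called at 3 of the 1922 peaks.

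The marks themselves were strong. Where fold enrichment is given, it is the authors' value for a peak over background, used here within 1 list at a time. The strongest overlapping H3K4me3 peak had a median fold enrichment of 30.6 (quartiles 25.2 and 35.4), next to 32.1 (26.4 and 37.5) with N-MYC, 25.7 with neither factor and 8.61 with both Polycomb features. Its median width was 2997.5 bp, next to 3037 bp with N-MYC. H3K27ac had a median fold enrichment of 13.9 (9.96 and 18.7), below the 16.3 (12.2 and 20.8) of the N-MYC group and above the 10.05 of the peaks with neither factor. The quartile ranges of the groups with and without N-MYC overlapped for both marks.

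As a description of the lists that chose them, the EZH2 peaks without N-MYC were narrower and lower than those with it. Their median width was 425 bp (quartiles 277 and 679, range 200 to 2282) against 693 bp (434 and 1001). Peaks of at most 300 bp made up 30.2% of them and 12.2% of the N-MYC group, and peaks over 1 kb 7.60 and 25.1%. Median EZH2 fold enrichment was 4.83 (4.12 and 5.83, highest 11.6) against 5.70 (4.64 and 7.15, highest 13.6). With neither factor, median width was 297 bp and median fold enrichment 4.36. The p300 peak under them was also lower, at a median fold enrichment of 4.90 against 5.77, and narrower, at 897 against 1317 bp.

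**Figure D1:**
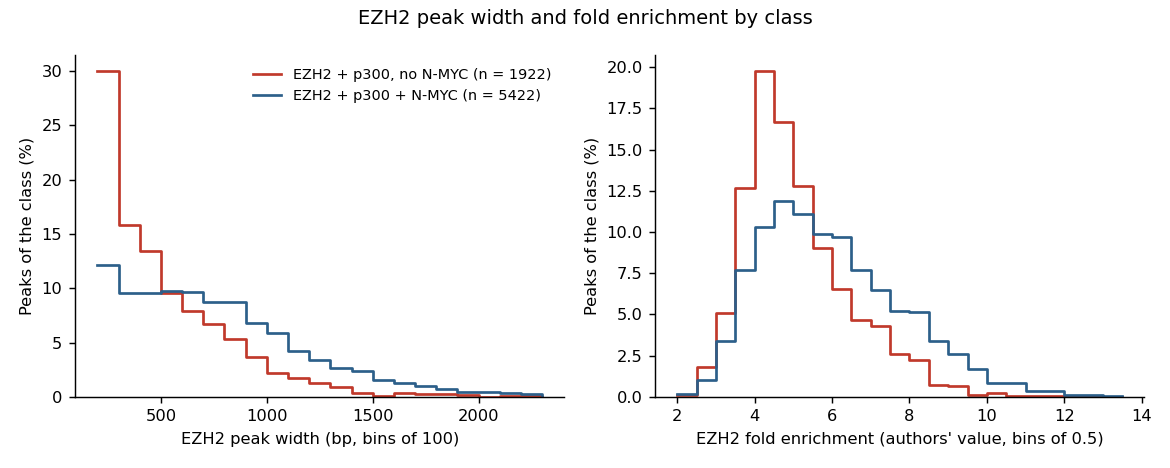
Share of peaks (%) by EZH2 peak width in bins of 100 bp (left) and by EZH2 fold enrichment in bins of 0.5 (right), for 1922 EZH2 peaks with p300 and no N-MYC (red) and 5422 with p300 and N-MYC (blue). The red curves sit to the left, with medians of 425 against 693 bp and of 4.83 against 5.70, and the 2 groups overlap over most of each range; wider N-MYC peaks, up to 4554 bp, lie beyond the axis.

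EZH2 peaks were compared next within 4 groups of EZH2 fold enrichment, from 1.88 to 4.42 in the weakest and from 6.82 to 13.6 in the strongest. Strength could still differ between the 2 kinds of peak inside a group. Width is not independent of the choice either, since a wider peak has more bases that an N-MYC peak can share. Peaks without N-MYC were narrower within each group, with medians of 286 against 386.5 bp in the weakest, 401 against 503 bp, 633 against 735 bp, and 882 against 1039 bp in the strongest. H3K4me3 differed little within groups, from 26.9 against 25.9 in the weakest to 38.6 against 38.4 in the strongest. The p300 fold enrichment stayed between 4.90 and 5.02 without N-MYC and ran from 5.52 to 6.14 with it. H3K27ac was lower without N-MYC in each group, by medians of 13.4 against 14.8 in the weakest and 15.1 against 18.9 in the strongest.

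The share without N-MYC among EZH2 peaks with p300 varied with EZH2 strength: over 10 steps of near-equal size it was 35.3% (32.0 to 38.9%) in the weakest, 42.1% (38.7 to 45.6%) in the second, and from there fell to 6.95% (5.32 to 9.02%) in the strongest. Along p300 fold enrichment it went from 45.2% in the weakest step to 15.0% in the ninth and 20.1% (17.3 to 23.1%) in the strongest. Along the marks, which the choice did not use, it went from 40.4 to 19.2% over H3K27ac and from 29.1 to 19.9% over H3K4me3. H3K4me3 width gave another shape: 31.0% (27.7 to 34.4%) in the narrowest step, 19.8% (17.1 to 22.9%) in the sixth and 36.9% (33.5 to 40.4%) in the widest. The peaks without N-MYC were thus found most often on H3K4me3 peaks at both ends of the width range. Peak strength moved with the choice throughout, a missing N-MYC peak means only that none was called, and the part of strength in the missing calls was not tested.

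**Figure D2:**
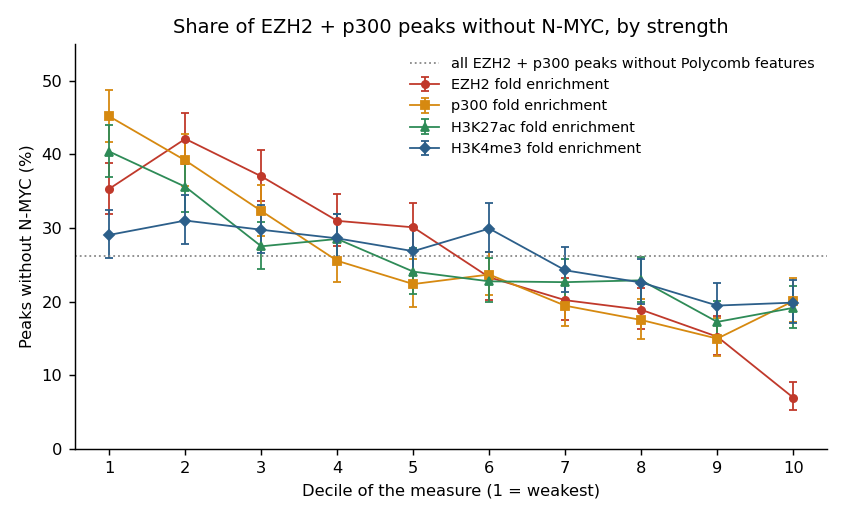
Share of EZH2 peaks with p300 that had no N-MYC (%, vertical bars are 95% Wilson intervals) in 10 steps of the fold enrichment of EZH2, p300, H3K27ac and H3K4me3; the dotted line is the share over all 7344 peaks. The EZH2 line goes from 35.3% in the weakest step to 42.1% in the second and down to 6.95% in the last, and the H3K4me3 line stays between 19.5 and 31.0%.

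N-MYC was close to some of these peaks and far from most. The gap from these EZH2 peaks to the nearest N-MYC peak had a median of 10642 bp, with quartiles of 333.5 and 40364 bp. N-MYC lay within 500 bp of 556 peaks and within 1 kb of 664 (34.5%). On the same H3K4me3 peak, N-MYC was called elsewhere for 748 (38.9%, 36.8 to 41.1%). For the peaks with neither factor it was 17.7%, and 68.1% of those had H3K4me3. The share of 38.9% became 61.8% when overlap had to cover 50% of the shorter peak and 20.5% when EZH2 peaks within 3 kb were merged. At the edge of the rule, 152 peaks (7.91%) had an N-MYC peak within 50 bp, while 173 of the 5422 in the N-MYC group shared at most 50 bp with theirs. For p300, 70 of the 1922 shared at most 50 bp with it, 69 of the 1005 peaks with neither factor had p300 within 50 bp, and 772 (40.2%) lay wholly inside p300 peaks.

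Gene starts were the usual location. Of the 1922 EZH2 summits, 1579 were no more than 1 kb from the start of a protein-coding gene (82.2%, 80.4 to 83.8%), next to 91.1% (90.3 to 91.9%) with N-MYC, 53.5% (50.4 to 56.6%) with neither factor and 35.9% (34.9 to 37.0%) with both Polycomb features. By EZH2 strength the share rose from 76.6 to 94.3% without N-MYC and from 88.2 to 92.9% with it. For the 1347 peaks near a start of known strand, the EZH2 summit lay at a median of 268 bp downstream (quartiles 134.5 and 399), with 85.7% (83.7 to 87.4%) downstream. H3K4me3 summits had the same side, at 280 bp and 87.7%, whereas p300 summits were centred on the start, at 3 bp and 50.5% (47.8 to 53.2%) downstream. The distance between EZH2 and p300 summits had a median of 317 bp, and that between EZH2 and H3K4me3 summits 143 bp. With N-MYC the order was alike: over 4191 peaks the EZH2 median was 261 bp, that of H3K4me3 322 bp and that of p300 -12 bp.

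**Figure D3:**
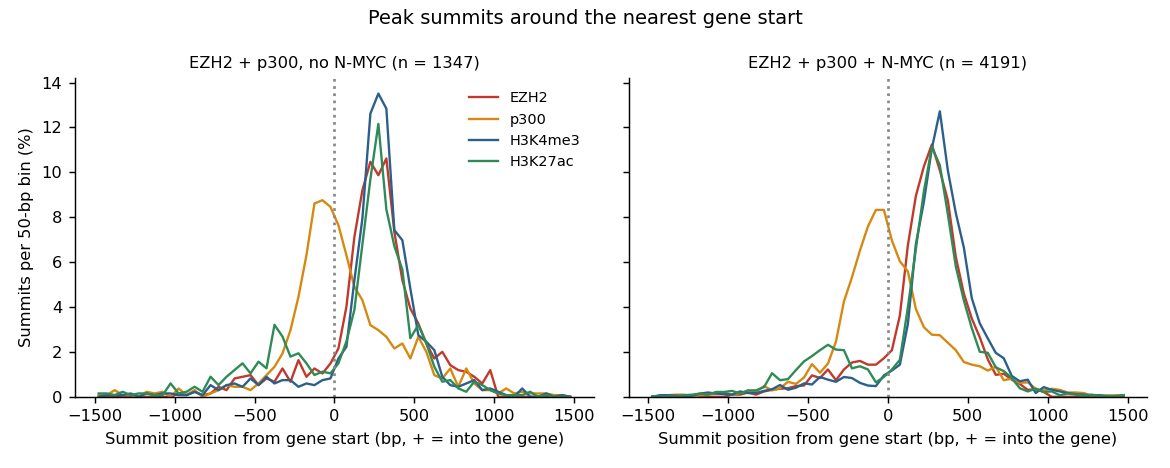
Share of summits (%) per 50-bp bin against distance from the nearest gene start (bp, positive into the gene), for EZH2, p300, H3K4me3 and H3K27ac for 1347 EZH2 peaks with p300 but no N-MYC (left) and 4191 with N-MYC too (right). EZH2 and H3K4me3 peak downstream of the start in both panels, with medians of 268 and 280 bp on the left, while the p300 median on the left is 3 bp.

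The 10 EZH2 peaks of highest fold enrichment had values from 9.44 to 11.6. Clk1, a kinase of SR splicing factors, had the highest value, 11.6, over 1285 bp (chr1:58422898-58424182), with the highest H3K27ac value of all, 42.6, and an N-MYC peak no nearer than 20812 bp. Cdkn2c, an inhibitor of the cyclin D kinases, followed at 11.2 over 1632 bp, and here N-MYC lay 86 bp away on the same H3K4me3 peak. Elp5, a subunit of the Elongator complex that modifies tRNA, had 10.8, Relch, a protein of recycling endosomes, 10.2, and Mki67 10.2, the last with H3K4me3 at 47.0 and N-MYC 62915 bp away. Krcc1 had 10.2, Chd4, the ATPase of the NuRD remodelling complex, 10.1 with p300 at 11.2, Fgfr1op2 9.99, Nacc1, a BTB-domain transcription regulator, 9.68, and Wdr20, a partner of deubiquitinases, 9.44. Of these 10, 7 had no N-MYC on their H3K4me3 peak, and Cdkn2c, Krcc1 and Wdr20 had it within 9 to 86 bp. Over all 1922 peaks, 38.9% had N-MYC on the same H3K4me3 peak.

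The peaks of highest p300 fold enrichment were few and were ranked on a list that the choice used. No difference between these peaks and those above, or the 38.9% over all peaks, was tested. Among them were Rfx1 (20.8), a winged-helix transcription factor, Mycbp (14.5), whose product binds MYC, Cyth2 (13.2), an exchange factor for ARF GTPases, and Golgb1 (12.6), a Golgi protein. These 4 had an N-MYC peak on the same H3K4me3 peak, at gaps of 724, 2, 65 and 53 bp in that order, and EZH2 values between 4.83 and 6.22.

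The 5 widest EZH2 peaks measured 1950 to 2282 bp. Smc4, a condensin subunit, had the widest EZH2 peak at 2282 bp, followed by 2147 bp inside Arntl, the clock gene also called Bmal1, 1982 bp at Cdk12, a kinase of RNA polymerase II, 1972 bp at Gnai2, an inhibitory G-protein subunit, and 1950 bp in the T-cell receptor beta locus. After Clk1, the highest H3K27ac values were 41.7 under a pair of peaks in that locus, 40.4 at Pcbp1, a poly(C)-binding protein, and 37.2 at Zkscan1, a zinc finger gene. Of the 8 peaks without H3K4me3, those nearest to Lgals7, Plec, Dcaf11 and Nemp1 had EZH2 values from 6.00 down to 4.24 and widths from 206 to 553 bp, and the peak near Nemp1 also lacked H3K27ac.

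Most H3K4me3 peaks that carried these EZH2 peaks carried 1 of them: 1531 of 1704, with 2 on 144 and 3 or more on 29. The 29 were wide, with a median of 6105 bp against 2794 bp for those with 1 and 1655 bp for all H3K4me3 peaks. Of the 29, 14 had no N-MYC, a lower share than over all 1704, of which 667 (39.1%) had N-MYC. These loci were chosen after their values were seen. The most, 5 each, were at Fyb, the adaptor ADAP of T cells (chr15:6578339-6585717, EZH2 4.24 to 6.62), at the T-cell receptor gamma segments Trgv2 to Trgc4 (chr13:19336195-19349545, 4.24 to 5.15), and at the noncoding gene Gm4258 (chr1:137897363-137906274, 3.25 to 6.22), and none of the 3 had N-MYC. With 4 followed Kdm2b, a histone demethylase of a variant Polycomb complex, without N-MYC on that H3K4me3 peak. Gata3, a T-lineage transcription factor, and Tspan32, a tetraspanin, also had 4, both with N-MYC. Kdm2b as a gene also had an EZH2 peak with N-MYC and p300. Of the 1704 H3K4me3 peaks, 382 also carried an EZH2 peak with N-MYC and p300.

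The antigen receptor loci showed the same grouping. In the T-cell receptor beta locus 5 of 5 EZH2 peaks belonged to the set without N-MYC, in the gamma locus 6 of 6 and in the immunoglobulin heavy chain locus 3 of 3. The beta peaks lay at the J and C segments with EZH2 values from 4.06 to 7.22, the highest at 408 bp from Trbj2-7 (chr6:41543919-41544725), and N-MYC was called elsewhere on the H3K4me3 peak that covers Trbj2-7 and Trbc2. The gamma peaks had 3.70 to 5.15, and the heavy chain peaks, between Ighm and Ighj4, 2.35 to 4.01 on H3K4me3 of 7.08. The alpha locus had 1 EZH2 peak, outside the set, and the light chain loci 0. Rearranged or repeated segments can share reads, so counts within these loci are uncertain.

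Of the 1922 peaks, 343 lay over 1 kb and 134 (6.97%, 5.92 to 8.20%) over 5 kb from a protein-coding start, and 20 of the 134 lay within 1 kb of the start of a noncoding RNA gene. Examples from the 134, chosen after their values were seen, lay at the noncoding gene Gm36220 (9.10, chr11:106500837-106501675), inside Ets1, an ETS transcription factor of lymphocytes (7.67 and 6.82, chr9:32696158-32698040 and chr9:32698756-32700520), and on Malat1 (7.33), a nuclear noncoding RNA. Snhg1, a host of small nucleolar RNAs, had 7.15 and Neat1, the scaffold RNA of paraspeckles, 6.44. Chosen likewise, but not among the 134, was a peak with p300 at 9.74 and EZH2 at 4.52 at Mir132 and Mir212, a microRNA pair transcribed together.

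Genes were then read by function, each peak being given to the protein-coding gene with the nearest start within 1 kb. A peak with p300 and no N-MYC was found at 1486 of 21887 protein-coding genes (6.79%), one with N-MYC and p300 at 4553 (20.8%), both at 206, and one whose H3K4me3 peak had no N-MYC anywhere at 969 (4.43%). Among the 11155 genes with H3K4me3 within 1 kb of the start, 13.3% had a peak without N-MYC. Among the 5833 genes with a peak of either kind, 25.5% had one without N-MYC. The lists below were written with results of these data in view, so their counts are descriptions.

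Cell-cycle and replication genes held the highest share of the 18 lists, 26 of 63 (41.3%, 30.0 to 53.6%), against 6.79% of all genes and 13.3% of genes with H3K4me3. Peaks with N-MYC were at 31 of the 63 (49.2%). After Cdkn2c and Mki67, the highest EZH2 values were at E2f2, a transcription factor of the entry into S phase (8.48), Ccnb1, a mitotic cyclin (6.84, N-MYC 35 bp away), and Aurkb, a mitotic kinase (6.81). Plk1 had 6.39 over 1120 bp with N-MYC 91146 bp away, Top2a 5.43 and Ccnb2 4.85, the windows of which are printed above. For 20 of the 26, no N-MYC lay on the H3K4me3 peak, next to 969 of the 1486 genes with such a peak. The 20 are 31.7% of the list, against 4.43% of all genes. H3K4me3 was at 62 of the 63 genes and at 51.0% of all genes, so these shares have unlike bases.

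Proteasome genes had such a peak at 13 of 48 (27.1%, 16.6 to 41.0%) and one with N-MYC at 27 (56.2%). The highest EZH2 values were 8.24 at Psmc3, 8.01 at Psmc1, 7.49 at Psme4, 7.14 at Psmd1 and 6.33 at Psmd12. Psmc1 and Psmc3 are ATPases of the regulatory particle and Psmd1 and Psmd12 are non-ATPase subunits of it. For 11 of the 13, no N-MYC lay on the H3K4me3 peak, next to 969 of the 1486 genes with such a peak. At a q-value of at most 1e-05 for EZH2 and p300, the count was 8.

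T-cell receptor signalling was the list with the highest count without N-MYC relative to the count with it: 14 of 40 (35.0%, 22.1 to 50.5%) against 12 of 40 (30.0%), and 58.3% of the genes with either kind, where all genes gave 25.5%. Dgka, a kinase that removes diacylglycerol, had the highest EZH2 value, 8.80 over 1285 bp and 24 bp from the start. Pag1, an adaptor that holds the inhibitory kinase Csk, had 6.76, Ubash3b, a phosphatase of the pathway, 6.59, Vav1, an exchange factor for small GTPases, 5.05, and Cd3g, a chain of the receptor complex, 5.03, the last with p300 at 7.51 and H3K27ac at 25.8. N-MYC was off the H3K4me3 peak at all 5. The other markers of T cells in the list had lower EZH2 values at the peak given to the gene: Cd5 had 4.07, Cd247 3.99, Cd3e 3.98, Zap70 3.49, Lat 3.44 and Lck 3.41. All but Cd3e had N-MYC on the same H3K4me3 peak, at gaps of 42 to 534 bp. Other EZH2 peaks nearby are not covered by these values. Beside the Lat peak lay another of the set with 4.68 (chr7:126368055-126368639), and Zap70 also had an EZH2 peak with N-MYC and p300. Summits at this list lay at a median of 610.5 bp from the start, next to 630 bp for T-lineage factors, 593 bp for immediate early and stress genes, 293 bp for the cell-cycle list and 272 bp for the proteasome list. At a q-value of at most 1e-05 for EZH2 and p300, 7 genes of the list had such a peak in place of 14.

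Antigen presentation had such a peak at 9 of 30 genes (30.0%, 16.7 to 47.9%) and one with N-MYC at 10. The class I genes H2-Q4, H2-K1 and H2-Q7 had EZH2 values of 7.82, 7.44 and 7.30, Rfxap, a subunit of the factor that binds class II promoters, 6.42, and Tap2, a subunit of the peptide transporter, 6.29. Of the 9, 8 had no N-MYC on their H3K4me3 peak, the exception being Erap1. Over all genes with such a peak the number was 969 of 1486. Class I genes are near-identical copies, so reads may have been placed on the wrong copy, and most of these genes are neighbours on chromosome 17.

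Cytokine and JAK-STAT genes had such a peak at 7 of 34 (20.6%, 10.3 to 36.8%). Its interval held the 13.3% of genes with H3K4me3, as did those of NF-kB genes (11.03 to 42.05%) and T-lineage factors (5.46 to 26.1%). The interferon receptor subunits Ifnar2 and Ifngr2 had 6.94 and 6.53, the shared receptor subunit Il6st 7.71, and the transcription factors Stat3, Stat2 and Stat5a 7.02, 5.15 and 3.07. N-MYC was on the H3K4me3 peak of Stat3 alone among the 7, while 969 of all 1486 genes with such a peak lacked it. NF-kB genes had 6 of 26 (23.1%): the kinase subunits Chuk (5.43) and Ikbkb (4.88), the deubiquitinase Cyld (4.85), the ubiquitin ligases Birc2 (5.63) and Traf2 (4.27), and the subunit Nfkb2 (3.88). Of the T-lineage factors, 5 of 40 (12.5%) had such a peak, Runx1 (6.08), Satb1 (5.83), Nr4a1 (4.65), Foxo1 (4.08) and Notch1 (3.597), and 14 had one with N-MYC.

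Chromatin regulators had 15 of 87 (17.2%, 10.7 to 26.5%), led by Chd4, the H3K4 demethylase Kdm5b (7.65), the maintenance DNA methyltransferase Dnmt1 (7.003), the H3K4 methyltransferase Setd1b (6.88) and the H3K27 demethylase Kdm6a (6.82). Apoptosis and p53 genes had 6 of 37 (16.2%), Cflar (7.02), Ccng1 (5.83), Casp8 (5.63), Bak1 (5.30), Mdm4 (4.24) and Bad (3.82). Endosome and lysosome genes had 16 of 73 (21.9%, 13.97 to 32.68%). Mitochondrial ribosomal proteins had 12 of 78 (15.4%, 9.026 to 24.99%) and zinc finger genes 45 of 424 (10.6%, 8.027 to 13.91%). The 13.3% of genes with H3K4me3 lay inside the intervals of chromatin, apoptosis (7.651 to 31.14%), mitochondrial ribosomal and zinc finger genes. For endosome and lysosome genes it lay just below the interval.

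Immediate early and stress genes had such a peak at 11 of 50 (22%, 12.8 to 35.2%), led by Btg2, an antiproliferative gene (9.29), the chaperone Hspa8 (5.63), the kinase Pim1 (5.43) and the RNA-binding Zfp36 (5.14) and Zfp36l2 (5.03), and 0 of the 11 lacked N-MYC on the H3K4me3 peak, with gaps of up to 1895 bp (Pim1). For 7 of the 11, the gene also had an EZH2 peak with N-MYC and p300. The 13.3% of genes with H3K4me3 lay inside the interval of this list.

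For 7 of the 18 lists the share without N-MYC was below the 13.3% of genes with H3K4me3: T-lineage factors and zinc finger genes, given above, and the 5 that follow, of which 3 were also below the 6.79% of all genes. Of 30 nucleolar genes known as MYC targets, 24 (80.0%, 62.7 to 90.5%) had an EZH2 peak with N-MYC and p300 and 1 (3.33%, 0.591 to 16.7%) a peak without N-MYC, the helicase gene Ddx21, which had both. That count of 1 was 5 when overlap had to cover 50% of the shorter peak and 0 in 5 other settings. Of 84 ribosomal protein genes the numbers were 73 (86.9%) and 5 (5.95%), of 48 splicing genes 41 (85.4%) and 4 (8.33%), of 56 translation initiation genes 35 (62.5%) and 5 (8.93%), and of 57 histone genes 21 (36.8%) and 2 (3.51%). Clk1, the strongest peak of all, belongs to the splicing list. The 2 counts of a list are not independent, since a gene with its EZH2 peak in the N-MYC group has less room for another.

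**Figure D4:**
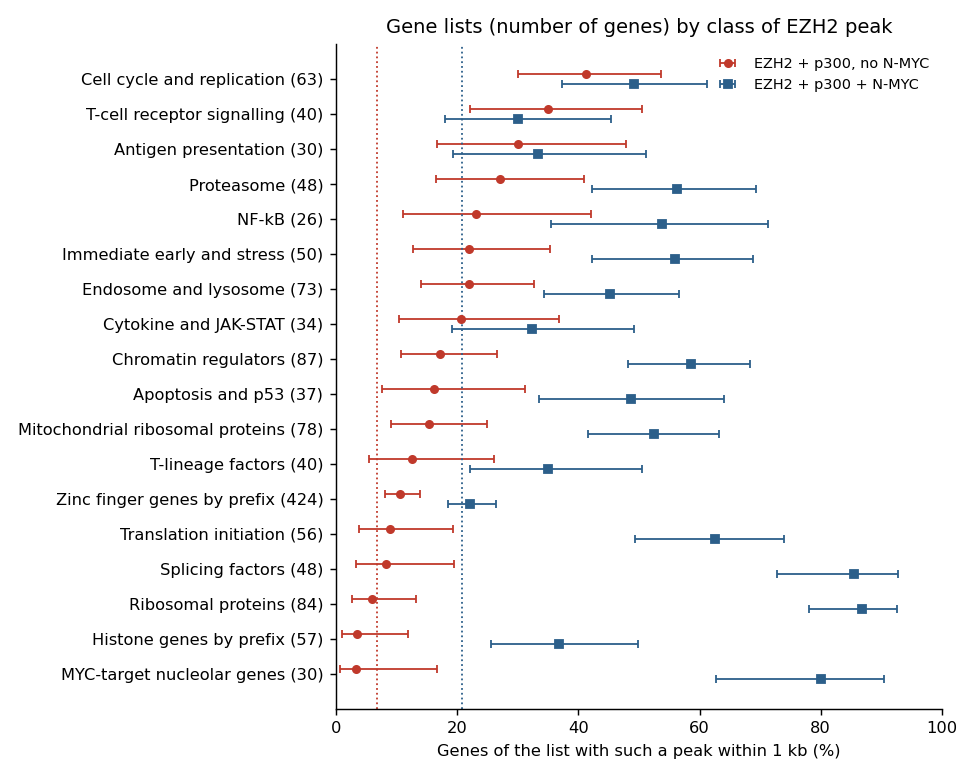
Share of genes (%) in each of 18 lists with an EZH2 and p300 peak within 1 kb of the start, without N-MYC (red circles) and with N-MYC (blue squares); bars are 95% Wilson intervals, numbers in brackets are genes, and dotted lines mark the shares over all 21887 genes, 6.79 and 20.8%. Cell-cycle (41.3%) and T-cell receptor (35.0%) genes are highest in red, and ribosomal proteins (86.9%) and splicing factors (85.4%) are highest in blue.

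Promoter letters were counted in RefSeq windows of 300 bases, 1 per gene, on both strands, with overlapping matches allowed. Windows overlapped by a peak without N-MYC and not by one with it numbered 760, those with the reverse 3281, those on H3K4me3 8822, and all windows 17492. The E-box CACGTG was present in 7.11% (5.49 to 9.16%) of the 760, 12.2% (11.1 to 13.4%) of the 3281, 10.8% of windows on H3K4me3 and 7.75% of all. The ETS letters CCGGAAG were in 32.1% (28.9 to 35.5%) of the 760, 25.1% (23.7 to 26.7%) of the 3281, 21.2% of windows on H3K4me3 and 11.8% of all, so that the share without N-MYC was the higher of the first pair here and the lower for the E-box. The CCAAT box was in 43.8% (40.3 to 47.4%) against 33.7% (32.1 to 35.3%) with N-MYC, 39.2% of windows on H3K4me3 and 39.0% of all. TTTGAA was in 14.1% (11.8 to 16.7%) against 8.72% (7.80 to 9.73%), 11.2% on H3K4me3 and 16.5% of all. The GC box GGGCGG was in 64.7% (61.3 to 68.0%) against 74.98% (73.5 to 76.4%), 69.3% on H3K4me3 and 45.9% of all. For the cyclic-AMP element TGACGTCA (4.74 against 4.51%, 2.22% of all), the RUNX letters TGTGGTT (3.82 against 2.59%, 4.81%) and TATAAA (3.29 against 4.66%, 13.3%), the intervals of the groups with and without N-MYC overlapped. Windows on H3K4me3 held these 3 at 3.54, 3.355 and 5.76%.

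Base composition moved with this comparison. CpG pairs per window had a median of 21 without N-MYC (quartiles 16 and 27) and 27 with it (21 and 35). Within 3 groups of CpG number, the E-box share was 7.97, 6.01 and 7.74% without N-MYC and 10.99, 12.2 and 12.6% with it, and the ETS share 27.5, 37.3 and 29.8% against 20.9, 29.9 and 23.5%. The order of the 2 kinds of promoter was thus kept for both motifs within each group, but their intervals overlapped everywhere except for the E-box in the middle group. The GC box differed less, at 48.9 against 50.2%, 69.6 against 72.8% and 81.5 against 84.9%. CCAAT was in 52.5, 42.1 and 32.7% without N-MYC against 40.6, 37.9 and 28.6% with it, with intervals that overlapped in the upper 2 groups, and TTTGAA in 18.8, 12.7 and 8.93% against 14.4, 11.5 and 4.94%, with intervals that overlapped in all 3. A match of letters is a description of the window and does not show a bound factor.

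**Figure D5:**
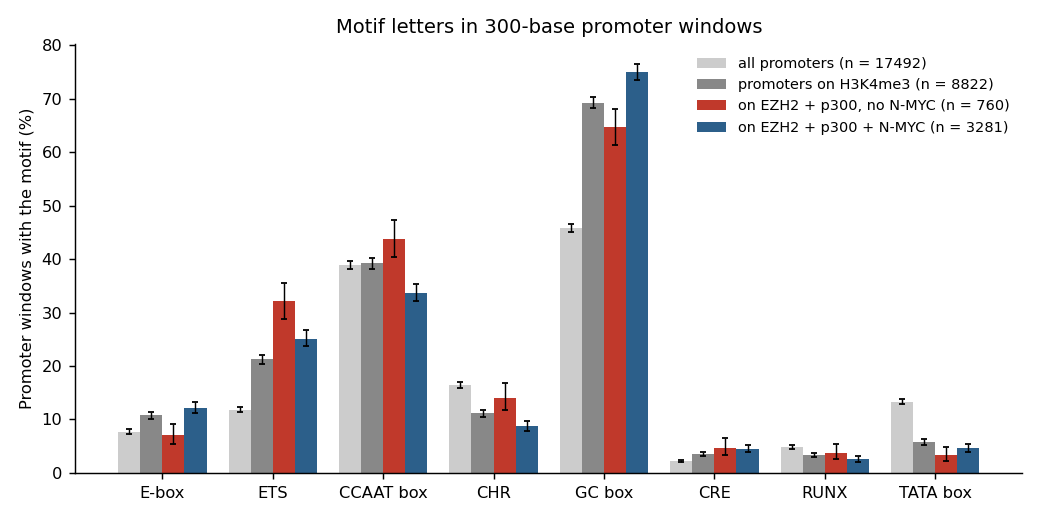
Share of 300-base promoter windows (%) that held the letters of each of 8 motifs, in all promoters, promoters on H3K4me3, and promoters overlapped by EZH2 and p300 peaks without N-MYC (red) or with it (blue); bars start at 0 and lines are 95% Wilson intervals. The E-box is lower in red (7.11%) than in blue (12.2%), and the ETS letters are higher in red (32.1%) than in blue (25.1%).

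By list, 14 cell-cycle promoters were overlapped by a peak without N-MYC and not by one with it. Of these, 12 held CCAAT and 7 TTTGAA (Aurka, Ccnb2, Cdc45, Mki67, Plk1, Top2a and Ttk), while 2 held CACGTG. Of 8 proteasome promoters, 6 held CCGGAAG and 0 CACGTG. Over all 760 windows of this kind, the shares were 43.8% for CCAAT, 14.1% for TTTGAA, 32.1% for CCGGAAG and 7.11% for CACGTG. Windows of these lists under peaks with N-MYC were not counted. Whether the counts are particular to peaks without N-MYC was therefore not tested. At the T-cell receptor list 1 of the 14 genes, Dgka, had a window that was counted, that is overlapped by such a peak and not by one with N-MYC. Genes without a strand-aware start, such as Pag1, had no window to count. The summits at this list lay at the median of 610.5 bp given above.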

How the data were processed

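The authors' narrowPeak lists, 1 for each of 7 immunoprecipitations, were used as deposited. The submitters' processing notes name FastQC, Bowtie2, SAMtools, MACS2, deepTools and the builds mm10 and GRCm38, without roles or versions, and whether libraries were pooled or inputs served as controls is not given in the sources used here. Fold enrichment is a linear ratio as deposited by the authors; p- and q-values are deposited as −log10 values, and the lists end at a −log10 q of about 2. Depth is unknown, and where a list has no peak, it holds no call above the authors' threshold.

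Lists were joined by overlaps of at least 1 bp (Python 3.11.15, pandas 2.3.3, numpy 2.4.6, SciPy 1.17.1, matplotlib 3.10.9), and the steps were tested on simulated data. The strongest overlapping peak represented a list. Gene names, starts and promoter sequences came from RefSeq GRCm38.p6; 17492 of 21887 protein-coding genes had a strand-aware start, and for the others the nearer gene end served. Antigen receptor segments were taken by symbol. Named were the 10 peaks of highest EZH2 fold enrichment, the 5 highest by p300, H3K27ac or width, the 5 strongest without H3K4me3, and list genes (all where 8 or fewer, otherwise the 5 of highest EZH2 value); genes outside this are said to be chosen after their values were seen, as are T-cell markers. Members, lists and rules were chosen with earlier results of these data known. The promoter windows replaced a CACGTG search around EZH2 summits, for which no genome sequence was used here. Some genes that this rule names are not reported here.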

Additional observations from a re-analysis of the deposited data

How the results depend on the processing

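Over 14 results and 91 alternative values, 41 fell inside the 95% interval of the main value (for counts, within 1.5 times of it) and 50 moved. A reversal of sign could be called only for the difference in median EZH2 fold enrichment, and 0 of its values reversed. The settings for gene-list counts and the strand-aware starts were chosen after seeing the data. The E-box share around EZH2 summits was not run.

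The number of peaks, 1922, was 1273 at a q-value of at most 1e-05 for EZH2 and p300, 1278 with EZH2 peaks within 3 kb merged, 1258 with no N-MYC within 1 kb and 1174 with none on the H3K4me3 peak. In the order of 50% overlap, q-value for EZH2 and p300, q-value in every list, merging, no N-MYC within 1 kb and none on the H3K4me3 peak, median EZH2 width was 502, 514, 547, 559.5, 497 and 502.5 bp, median EZH2 fold enrichment 5.03, 5.23, 5.33, 5.14, 5.001 and 5.03, and the share near a gene start 85.3, 84.2, 85.2, 90.1, 84.8 and 88.1%. That share was 65.6% within 500 bp, 93.0% within 5 kb and 70.1% for strand-aware starts. Against the N-MYC group, the difference in median EZH2 fold enrichment, -0.87, was -0.69 with the q-value in every list, -0.51 with no N-MYC within 1 kb and -0.48 with none on the H3K4me3 peak. The share with H3K27ac was 99.7% at the q-value for EZH2 and p300. The summit distance to p300 was 342 bp at that q-value, 276.5 bp merged, and 268 and 262.5 bp without nearby N-MYC. N-MYC elsewhere on the H3K4me3 peak went to 61.8% at 50% overlap, 36.4 and 29.1% at the q-values, 20.5% merged and 6.92% with no N-MYC within 1 kb.

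T-cell receptor genes with a peak numbered 14, and 7 at the q-value for EZH2 and p300, 9 at that in every list, and 9 and 9 without nearby N-MYC. Proteasome genes fell from 13 to 8 at the q-value for EZH2 and p300. Nucleolar MYC targets, 1 as reported, numbered 5 at 50% overlap, 2 with every gene within 1 kb counted, and 0 at either q-value, merged, and without N-MYC within 1 kb or on the H3K4me3 peak. Cell-cycle and antigen presentation counts stayed within 1.5 times.

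No paired analysis was possible because each antibody had 1 library and no result comes from a test.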
